A study of Mus musculus with 6 samples.

Results

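The genes of the MYC network were compared between WT and *Alkbh1*-/- mouse embryonic stem cells (mESCs). The network was taken as 10 genes chosen by name: the activators *Myc*, *Mycn* and *Mycl1* (now *Mycl*), their common partner *Max*, and the antagonists *Mxd1*, *Mxd3*, *Mxd4*, *Mxi1*, *Mga* and *Mnt*. They were looked up in the deposited table by symbol, by an older alias or by gene identifier, and all 10 were found, among 15364 genes that could be named. They are represented by 24 of the table's 33142 probe sets, each a group of short probes for a transcript. A gene is given by its probe set with the highest mean, and for the 10 members the other probe sets are given beside it. Genes other than the members are mostly given by that probe set alone, and their other probe sets can differ.

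MYC proteins are basic helix-loop-helix leucine zipper transcription factors that bind DNA only as dimers with MAX, at a site called the E-box (CACGTG). MYC-MAX dimers recruit acetyltransferase complexes and raise transcription of genes for ribosome biogenesis, metabolism and cell cycle entry. The MXD proteins, MXI1 and MNT also dimerise with MAX, occupy the same sites and recruit the SIN3 deacetylase complex, and MGA brings MAX into a Polycomb complex, PRC1.6, that keeps germline genes silent. In mESCs, MYC and MYCN support self-renewal and proliferation, and *Myc* is a target of the LIF and STAT3 pathway.

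Total RNA of undifferentiated cells was hybridised to 6 Affymetrix arrays, 3 of WT and 3 of *Alkbh1*-/- mESCs, all C57BL/6 and at passage 8, day 0. ALKBH1 is a dioxygenase of the AlkB family. Lines of both genotypes came from littermate blastocysts of heterozygous parents, received no treatment and grew with LIF on irradiated mouse embryonic fibroblasts. The sample descriptions give the 3 arrays of a genotype a shared name with a running number, so that genotype and cell line cannot be told apart, and p-values measure only the spread between these arrays, which may be technical. The deposited table gives, for each probe set, the difference between genotypes, the mean over all arrays and a moderated statistic. Group means, standard errors and intervals were computed from these, and no array is shown by itself.

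*Alkbh1* itself was checked first. Its brightest probe set had a mean log2 value of 9.57 in WT and 4.69 in *Alkbh1*-/- mESCs, a log2 difference of −4.89 (SE 0.17, adjusted p = 3e-05). All adjusted p-values are Benjamini-Hochberg values of limma's moderated test over all probe sets unless another test is named. All 8 markers of mESCs were bright, with group means from 9.84 to 14.52. *Pou5f1* (Oct4) and *Sox2* had differences of 0.17 and 0.26 and did not pass, *Nanog* was called higher at 1.10 (adjusted p = 0.000592), and *Esrrb*, *Tdgf1* and *Utf1* had an adjusted p under 0.05 at 0.55, 0.32 and −0.49, under the fold threshold. Of 16 fibroblast markers, 16 had lower means in *Alkbh1*-/- mESCs, 10 of them at an unadjusted p under 0.05 (17.7% of all genes were lower at that threshold), and 0 had an adjusted p under 0.05. The 525 X-linked genes stood apart, with 40.4% of them called higher in *Alkbh1*-/- mESCs.

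*Myc* and *Mycn* transcripts were less abundant in *Alkbh1*-/- than in WT mESCs, whereas *Mycl1* and *Max* did not pass the test. A gene was called when its adjusted p was under 0.05 and its linear fold over 1.5, which is 0.58 on the log2 scale. By this rule 2 of the 3 activators were lower and 0 were higher, while 4.07% of all genes were called lower and 4.45% higher. None of the 6 antagonists was called in either direction, and 2 of them, *Mxd1* and *Mga*, had an unadjusted p under 0.05, as did 31.6% of all genes. Whether activators and antagonists differ from each other was not tested.

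*Myc*, the founding member of the family, has a single named probe set (1424942_a_at, chromosome 15). Its mean log2 value was 9.05 in WT and 8.34 in *Alkbh1*-/- mESCs, so that the *Alkbh1*-/- level was 0.609 times that of WT. The log2 difference was −0.72 (SE 0.11, 95% confidence interval −0.98 to −0.45, adjusted p = 0.00696). In a second deposited table, from a service company, the entry with this difference and mean gives geometric mean intensities of 532 in WT and 324 in *Alkbh1*-/- mESCs. That entry was found by these values and not by its identifier, so it restates them on the linear scale and is no separate check. *Myc* thus fell 1.64-fold, and its interval excludes a difference of 0.

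*Mycn*, the paralog that is abundant in early embryonic and neural progenitor cells, lies on chromosome 12, as *Alkbh1* does, with 407 other protein-coding genes between them in RefSeq. Its brightest probe set (1417155_at) had a mean log2 value of 11.91 in WT and 11.07 in *Alkbh1*-/- mESCs, and its mean over all arrays exceeded that of 96.2% of probe sets. The log2 difference was −0.84 (SE 0.13, interval −1.16 to −0.52, adjusted p = 0.00762). A further probe set (1425922_a_at) had means of 9.09 and 8.18 and a log2 difference of −0.91 (adjusted p = 0.00688). Both therefore fell, 1.79-fold and 1.88-fold. The third and dimmest (1425923_at) had means of 6.45 and 6.34, and its difference of −0.11 had an interval from −0.37 to 0.15 that included 0. Among the 535 named genes of chromosome 12 other than *Alkbh1*, *Mycn* and *Max*, 5.05% were called lower.

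The mean over all arrays placed *Mycn* at percentile 96.2 of all probe sets and *Mxd4* at 29.2, with *Mga* at 89.7, *Mnt* at 89.1, *Myc* at 78.5, *Mxi1* at 75.0, *Max* at 73.7, *Mycl1* at 59.1, *Mxd3* at 58.7 and *Mxd1* at 41.3. Probe sets differ in affinity, so that this order describes signal and not transcript number.

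*Mycl1*, the remaining paralog, was at 6.98 in WT and 7.03 in *Alkbh1*-/- mESCs, a log2 difference of 0.05 with an interval from −0.26 to 0.37. Its other probe sets were at 0.24 and 0.15, with adjusted p = 0.213 and 0.509. The interval of the brightest probe set does not reach a 1.5-fold difference in either direction. *Max*, the partner that MYC proteins need to bind DNA, was at 8.16 in WT and 8.37 in *Alkbh1*-/- mESCs. Its log2 difference of 0.21 had the largest standard error of the 24 probe sets, 0.22, and the interval ran from −0.32 to 0.74. For *Max* a 1.5-fold rise was therefore not resolved at this number of arrays.

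**Figure D1:**
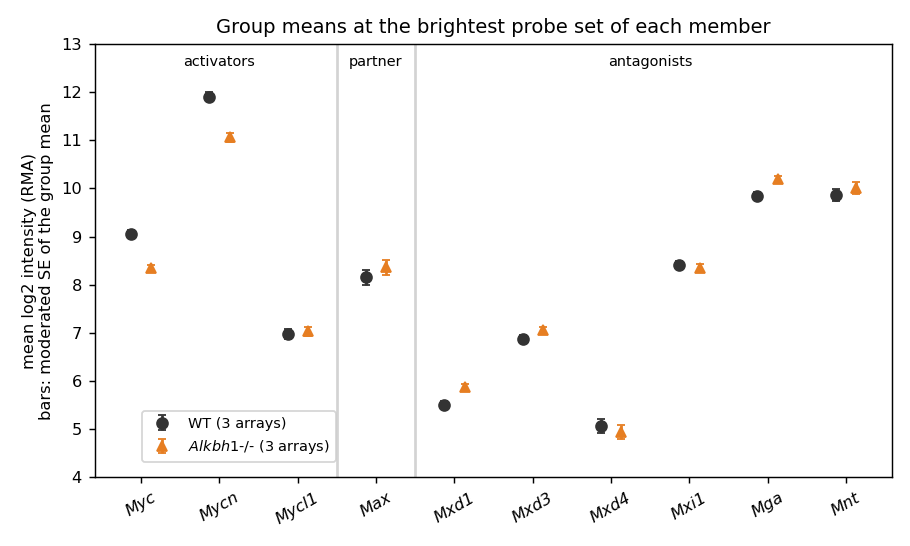
Mean log2 intensity (y axis) of WT (circles) and *Alkbh1*-/- mESCs (triangles) at the brightest probe set of each member (x axis), with bars for the moderated standard error of a group mean, 3 arrays each. *Myc* stands at 9.05 against 8.34 and *Mycn* at 11.91 against 11.07, while the symbols of the other members lie within 0.36 of each other; brightness also depends on the probes, so heights are not compared between genes.

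Leaving out the moderation of variances ended both calls: under Student's test the adjusted p was 0.05 for *Myc* (at the threshold and not under it) and 0.0612 for *Mycn*. Limma's treat, a test against 1.5-fold instead of against 0, gave an adjusted p of 1.0 for both brightest probe sets, and neither reached a log2 difference of 1.5.

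Feeder fibroblasts express *Myc* too, and the means of their markers were lower in *Alkbh1*-/- mESCs as well. The median log2 difference of the 16 fibroblast markers was −0.81, their summed linear intensity was 14655 in WT and 8037 in *Alkbh1*-/- mESCs, a ratio of 0.548, and their WT means ran from 5.56 to 12.25. The fibroblast markers had a median standard error of 0.33, against 0.11 for *Myc* and 0.13 for *Mycn*. In a culture of several cell types, fewer cells of a type and less RNA per cell cannot be told apart, and the part of feeder RNA in the fall of *Myc* and *Mycn* was not tested. Of 10 germ layer markers, whose median difference was −0.04, *Neurod1*, a neurogenic factor, fell by 1.41 (adjusted p = 0.000584) and *T*, the mesoderm factor brachyury, by 0.86 (adjusted p = 0.00504), while the other 8 were not called. The summed linear intensity of that list was 638 in WT and 406 in *Alkbh1*-/- mESCs, a ratio of 0.636. *Neurod1* and *T* had the highest WT means of the list, 8.12 and 6.88, so this sum mostly reflects them and not the other 8 markers. The part of differentiating cells in the fall of *Myc* and *Mycn* was not tested either.

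The antagonists had log2 differences between −0.12 and 0.36 at the brightest probe sets. Of the 6, 4 had a positive and 2 a negative difference there, with a median of 0.16, beside −0.03 over all genes. This count depends on the probe sets. Averaged over all probe sets of a gene, *Mxd1*, *Mxd3* and *Mnt* were at 0.16, 0.16 and 0.01. *Mxd4*, *Mxi1* and *Mga* were then at −0.11, −0.02 and −0.11. *Mxd1*, which rises when cells leave the cell cycle to differentiate, had the lowest adjusted p of the 6 at the brightest probe sets. It was at 5.51 in WT and 5.87 in *Alkbh1*-/- mESCs, a log2 difference of 0.36 (SE 0.09, interval 0.15 to 0.57, adjusted p = 0.0415). The fold of 1.28 was under the threshold, and its other probe sets were at 0.08 and 0.03. With a prior variance that follows mean expression, the adjusted p of *Mxd1* was 0.0612.

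*Mxd3*, the MXD protein tied to the S phase of dividing cells, was at 6.88 in WT and 7.06 in *Alkbh1*-/- mESCs. Its 3 probe sets had log2 differences of 0.18, 0.17 and 0.12, and the adjusted p-values were 0.301, 0.429 and 0.509. *Mxd4*, a further MXD repressor, was at 5.07 in WT and 4.95 in *Alkbh1*-/- mESCs, a difference of −0.12 (interval −0.61 to 0.37), and its other probe set was at −0.10. *Mxi1*, also called MXD2, was at 8.41 and 8.35, a difference of −0.06 (interval −0.32 to 0.21), with 0.02 at its dimmer probe set. *Mnt*, the broadly expressed antagonist, was at 9.86 in WT and 10.01 in *Alkbh1*-/- mESCs, a difference of 0.14 (interval −0.30 to 0.59), and its dimmer probe set had the opposite sign, −0.12. For these 4 genes no probe set had an adjusted p under 0.05.

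*Mga*, the scaffold of PRC1.6, was the member whose probe sets went apart. The brightest (1434746_at) had means of 9.85 in WT and 10.19 in *Alkbh1*-/- mESCs, a log2 difference of 0.35 (SE 0.10, interval 0.10 to 0.59, adjusted p = 0.0751, or 0.029 with a prior variance that follows mean expression). The next (1431232_a_at), nearly as bright, had means of 9.58 and 9.08 and a difference of −0.50 (SE 0.08, interval −0.68 to −0.32, adjusted p = 0.00705). Their intervals lie on opposite sides of 0. Of the dimmer ones, 1422646_at was at 0.09 and 1442356_at at −0.36 (adjusted p = 0.0334). The probe sets with an adjusted p under 0.05 were 0.707 and 0.777 times their WT level, which is short of the fold threshold. *Mga* is a long gene with several transcripts, and which of them each probe set reads was not tested. The mean over the 4 probe sets was −0.11, so that the sign of the gene depends on the probe set.

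Over the 24 probe sets of the network, 3 were called lower, the *Myc* probe set and 2 of *Mycn*, and 0 were called higher, while 3.13% of all probe sets were called lower. At an adjusted p under 0.05 without a fold threshold, 6 of the 24 passed, 5 lower and 1 higher, against 12.9% of all probe sets. By gene, 3 of the 10 members passed at this looser threshold (*Myc*, *Mycn* and *Mxd1*), against 16.1% of all genes. *Myc*, with its 1 probe set, was the only member with every probe set called alike.

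**Figure D2:**
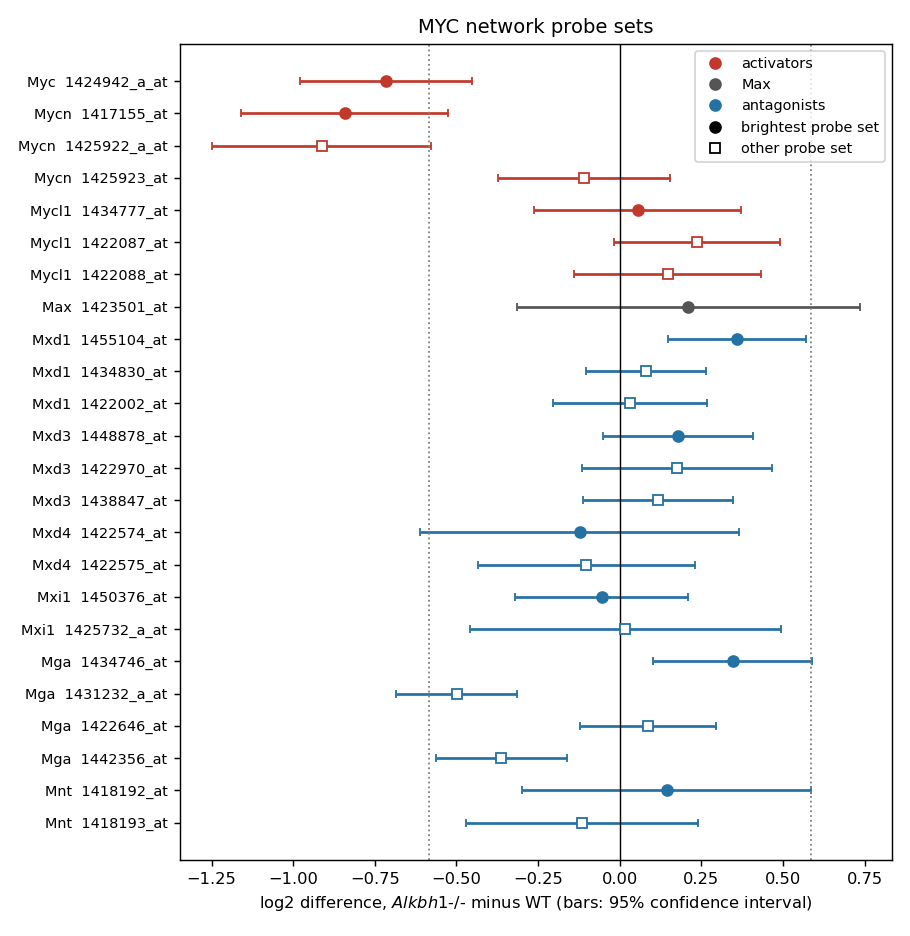
Log2 difference between *Alkbh1*-/- and WT mESCs (x axis) for the 24 probe sets of the 10 members (y axis), with 95% confidence intervals; filled circles are the brightest probe set of a gene, open squares the others, and dotted lines a 1.5-fold difference. Only points of *Myc* and *Mycn* lie beyond a dotted line, and those of *Mga* lie on both sides of 0, from −0.50 to 0.35.

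**Figure D3:**
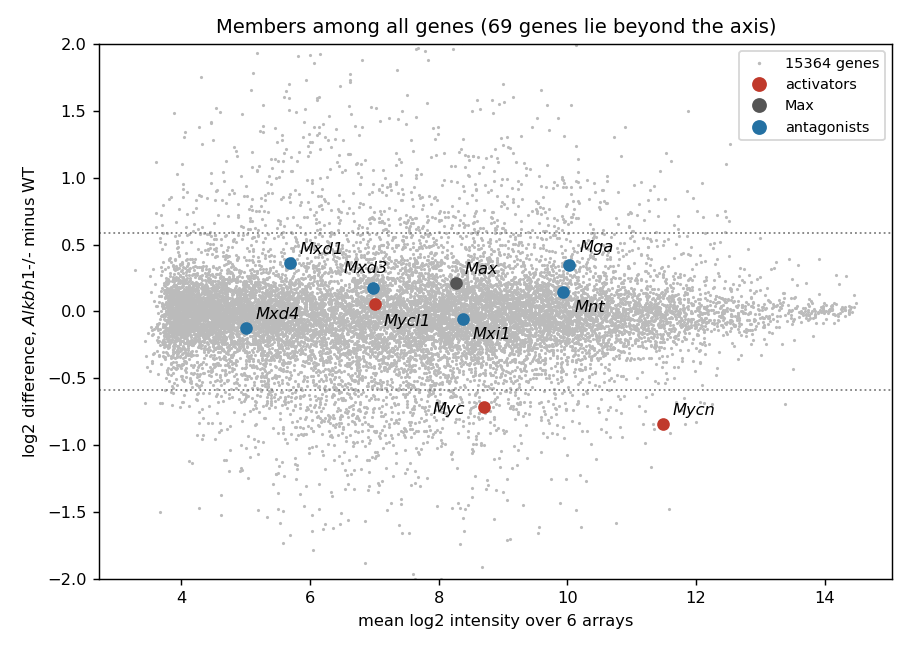
Log2 difference (y axis) against mean log2 intensity over 6 arrays (x axis) for 15364 genes (grey) with the 10 members coloured by role; dotted lines mark a 1.5-fold difference, and 69 genes lie beyond the plotted range. *Myc* at −0.72 and *Mycn* at −0.84 lie below the lower dotted line, and the other 8 members lie between the dotted lines.

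The MLX arm of the network shares some of the antagonists with MAX. *Mlx*, the partner itself, was at 7.90 in WT and 8.03 in *Alkbh1*-/- mESCs, and *Mlxip*, which encodes the glucose sensor MondoA, at 7.82 and 7.68, and neither passed the test. *Mlxipl*, which encodes the carbohydrate response factor ChREBP, fell from 5.92 in WT to 5.16 in *Alkbh1*-/- mESCs, a log2 difference of −0.76 (SE 0.12, adjusted p = 0.00814), a call that was lost under Student's test and under treat.

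None of the genes of the complexes through which the network acts was called, beside 4.07% of all genes called lower and 4.45% higher. At those shares, 0 calls in lists this short say little about the complexes. Of 12 subunits of PRC1.6, 0 were called, and 2 had an adjusted p under 0.05 with a smaller fold: *Rnf2*, the ubiquitin ligase, at a log2 difference of 0.35, and *Wdr5*, a histone-binding subunit, at 0.46. Of 13 genes of the SIN3 corepressor, 0 were called, and *Sin3b* had a difference of 0.41 at an adjusted p of 0.0176. Of 11 coactivators of MYC, 0 were called, and their differences ran from −0.18 to 0.29. At an unadjusted p under 0.05 there were 3 genes of PRC1.6, 4 of SIN3 and 1 coactivator, beside 31.6% of all genes. The share of SIN3 was close to that of all genes. The medians of the 3 lists were −0.07, 0.01 and −0.05, beside −0.03 over all genes.

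Among 12 genes for the turnover and cofactors of MYC proteins, 1 fell and 1 rose, and both are X-linked. The shares of all genes called were 4.07% lower and 4.45% higher. *Pim2*, a kinase that phosphorylates and stabilises MYC, fell from 9.55 in WT to 8.22 in *Alkbh1*-/- mESCs, a log2 difference of −1.33 (SE 0.14, adjusted p = 0.00152). Of the X-linked genes as a whole, 2.1% were called lower and 40.4% higher, with a median log2 difference of 0.47. *Huwe1*, a ubiquitin ligase with MYC and MYCN among its substrates, was at 10.73 in WT and 11.33 in *Alkbh1*-/- mESCs, a difference of 0.60 (adjusted p = 0.00307), and its other 4 probe sets were at 0.82 to 1.21. *Usp28*, a deubiquitinase that protects MYC, had a difference of −0.58 (adjusted p = 0.00373) and missed the fold threshold narrowly.

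Canonical targets activated by MYC did not pass the test. The list held 32 such genes, for ribosome biogenesis, nucleotide and polyamine synthesis, translation and the cell cycle. Of these, 0 were called, beside 4.07% of all genes called lower and 4.45% higher. Without the fold threshold 0 passed, against 16.1% of all genes. At an unadjusted p under 0.05, 2 were lower, a threshold at which 17.7% of all genes were lower. At the brightest probe sets, their log2 differences ran from −0.53 to 0.08, with a median of −0.07. Of the 32, 25 were negative there, against 8484 of all 15364 genes. Signs at other probe sets were not counted and can differ. *Tfrc* was at −0.15 at its brightest probe set and at 0.27 to 0.69 at its others, while every probe set of *Cad* was negative. *Odc1*, the first enzyme of polyamine synthesis, was at 12.94 in WT and 12.80 in *Alkbh1*-/- mESCs. *Ncl*, which encodes the nucleolar protein nucleolin, was at 13.64 and 13.63. *Cad*, the enzyme that starts pyrimidine synthesis, had a difference of −0.26 with an adjusted p of 0.0725. *Ccnd2*, a D-type cyclin, had the most negative value, −0.53, with a standard error of 0.32.

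Of 8 genes that MYC is known to repress, 2 were called and both were lower in *Alkbh1*-/- mESCs, beside 4.07% of all genes called lower. *Cdkn1a*, the cell cycle inhibitor p21, fell from 10.49 to 9.80, a difference of −0.70 (SE 0.16, adjusted p = 0.0313). *Cdkn1c*, an imprinted inhibitor of the same family, fell from 7.57 to 6.68, a difference of −0.89 (SE 0.16, adjusted p = 0.0131). Under Student's test and under treat, 0 of the 8 were called. The fibroblast markers had a median of −0.81 in the same arrays, and the part of feeder RNA in these values was not tested.

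Germline genes, which MGA, MAX and PRC1.6 hold down in mESCs, had the highest share of calls of the 8 pathway lists. Of 13 listed, 12 could be analysed, and 7 were called higher and 1 lower, with a median log2 difference of 0.69. Over all genes, 4.45% were called higher and 4.07% lower, with a median of −0.03. *Smc1b*, a meiotic cohesin subunit, rose from 4.66 in WT to 6.97 in *Alkbh1*-/- mESCs, a difference of 2.31 (SE 0.21, adjusted p = 0.000888). *Hormad1*, a protein of the meiotic chromosome axis, rose from 6.54 to 8.56, by 2.01 (SE 0.11, adjusted p = 0.00017). *Dazl*, an RNA-binding protein of germ cells, and *Stag3*, another meiotic cohesin subunit, rose by 1.36 and 1.17. *Mael*, *Slc25a31* and the X-linked *Taf7l* were called at 0.92, 0.74 and 0.63. The count of 7 depends on the test, and was 4 under Student's test and 3 under treat. The cause of the rise of these genes was not tested, and genotype and cell line cannot be told apart.

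The direction was not shared by the whole germline list. *Ddx4*, the germ cell RNA helicase, fell from 8.92 in WT to 8.21 in *Alkbh1*-/- mESCs, a difference of −0.71 (SE 0.13, adjusted p = 0.0115). *Tdrkh*, of the piRNA pathway, was at −0.51 (adjusted p = 0.048), short of the fold threshold. *Sycp3*, *Sycp1* and *Stk31* were at 0.17, −0.13 and 0.27 and did not pass. *Slc25a31*, *Taf7l* and *Smc1b* were dim in WT, with means of 3.82, 4.65 and 4.66.

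**Figure D4:**
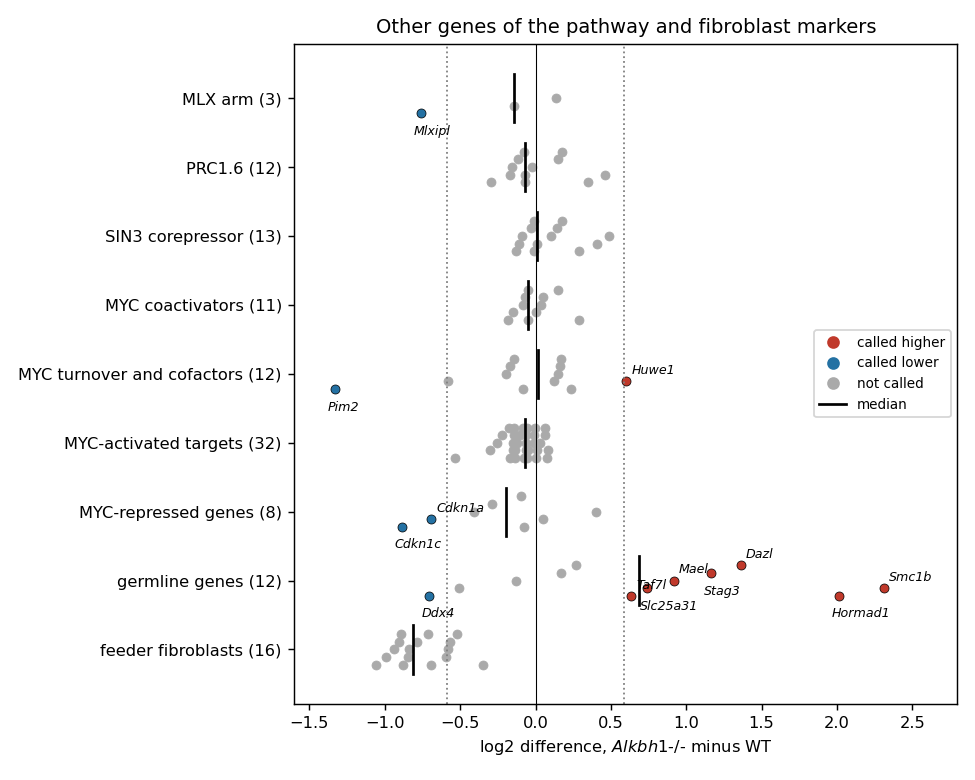
Log2 difference between *Alkbh1*-/- and WT mESCs (x axis) for each gene of the other pathway lists and of the fibroblast markers (y axis, number of genes in brackets); red and blue points are called higher and lower, black bars are medians and dotted lines a 1.5-fold difference. MYC-activated targets gather near their median of −0.07, and the fibroblast markers lie to the left with none called. Of 12 germline genes, 7 are called higher, beside 4.45% of all genes.

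The E-box was looked for in the promoters of the network and of the germline list, because MAX dimers read this site. RefSeq windows from 250 bases before to 50 bases after a start (assembly GRCm38.p6) were searched for CACGTG, which reads the same on both strands. A window was at hand for 9 of the 10 members, all but *Myc*, and 3 of the 9 held the site. It was in the windows of 9 of 27 MYC-activated targets and 9 of 12 germline genes, while 8.09% of all 27025 genes held it. Both lists were chosen as genes that MAX complexes act on, so their shares are no separate test of that. Of the other lists, the MLX arm held it in 2 of 3 genes. PRC1.6, SIN3 and the coactivators each held it in 1 of 10, the turnover and cofactor genes in 1 of 11 and the MYC-repressed genes in 0 of 5. Of the 7 germline genes called higher, *Hormad1*, *Mael*, *Slc25a31*, *Stag3* and *Taf7l* held an E-box and *Dazl* and *Smc1b* did not, so that 5 of 7 held it. Of the 5 not called higher, 4 held it: *Ddx4*, which fell, and *Sycp1*, *Sycp3* and *Stk31*, which were not called. The 3 members and the called germline genes that hold it are shown with 30 bases on the strand of the gene, the E-box in capitals; a match describes the letters and is not a measured binding site.

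Max, chr12:76962234-76962263, minus strand: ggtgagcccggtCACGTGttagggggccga

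Mnt, chr11:74830789-74830818, plus strand: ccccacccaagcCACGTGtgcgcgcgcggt

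Mxd4, chr5:34187912-34187941, minus strand: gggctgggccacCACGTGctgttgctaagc

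Hormad1, chr3:95559608-95559637, plus strand: caaagggtgcgcCACGTGccagtgacagtt

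Hormad1, chr3:95559645-95559674, plus strand: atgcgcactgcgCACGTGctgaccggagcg

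Mael, chr1:166238950-166238979, minus strand: taccaggcctacCACGTGacaatccccgcc

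Stag3, chr5:138280327-138280356, plus strand: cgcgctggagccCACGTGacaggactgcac

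Slc25a31, chr3:40708766-40708795, plus strand: cgcaactggaaaCACGTGttatggtcacat

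Taf7l, chrX:134476522-134476551, minus strand: accctcttatacCACGTGacagaactcgcc

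Ddx4, chr13:112652322-112652351, minus strand: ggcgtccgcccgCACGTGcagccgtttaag

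In *Max* the E-box begins 3 bases before the annotated start, in *Mnt* 123 and in *Mxd4* 219 bases before it, and none of these 3 genes passed the test. The windows of *Mycn*, *Mycl*, *Mxd1*, *Mxd3*, *Mxi1* and *Mga* did not hold these letters. The core GCGGGA, read by E2F proteins such as the PRC1.6 subunit E2F6, was searched on both strands too and was in the windows of 8 of 12 germline genes, 4 of 9 members and 22.0% of all genes. It was about as common as in the members in 13 of 27 MYC-activated targets, 5 of 10 genes of PRC1.6, 5 of 10 of SIN3, 4 of 10 coactivators and 5 of 11 turnover and cofactor genes. The MLX arm held it in 1 of 3 and the MYC-repressed genes in 1 of 5.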

How the data were processed

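RNA of 3 WT and 3 *Alkbh1*-/- mESC samples was hybridised to Affymetrix mouse genome arrays, and the authors normalized them together with the robust microarray analysis (RMA) algorithm, as the submitters' processing notes also name. The deposited table holds log2 values per probe set (group difference and mean over arrays), a score (the moderated statistic, with a sign opposite to the difference for all 33142 rows) and its p-value, after a filter not given in the sources used here. A second deposited table, from a service company that ran its own class comparison, gives linear intensity as a geometric mean per genotype. Its entries were joined by value within 0.0001, for 4261 of 4326, since only 8 of these carried the same identifier. The difference was read as *Alkbh1*-/- minus WT from these entries and from the deposited description, which says that the WT class is printed under a wrong name; 0 entries matched with the sign turned.

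The columns used are the authors' own comparison, since no others hold the genotypes apart across all probe sets. Standard errors are the difference over the statistic, intervals use 7.14 total degrees of freedom, and Benjamini-Hochberg adjustment ran over all probe sets. The variance before moderation was recovered with limma 3.58.1 (R 4.3.3), tested on simulated data. Python 3.11.15, pandas 2.3.3, SciPy 1.17.1 and matplotlib 3.10.9 did the rest. Probe sets were named by RefSeq (GRCm38.p6) through gene identifier, accession or symbol (85.1%); the build of the array annotation is not given in the sources used here. The number of arrays limits the precision. Depth does not apply.

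The members and lists were chosen with earlier results of these data known. The text names every member, *Alkbh1*, the MLX arm and, from each list, up to 4 called genes per direction; other list genes were named as examples after their values were seen. Alternatives tried were other fold thresholds, treat, Student's test, a trended prior variance, the mean of a gene's probe sets, a filter on dim probe sets and leaving out X- and Y-linked ones. No sample was left out.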

Additional observations from a re-analysis of the deposited data

How the results depend on the processing

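Of the 3 activators, 2 were called lower at the main thresholds. With a log2 difference over 1.5, with Student's test and with limma's treat, 0 were. With the mean of all probe sets, where every probe set has to be called, 1 was, *Myc*; *Mycn* averaged −0.62, and its dimmest probe set was not called. Without a fold threshold, 1 antagonist was called higher (*Mxd1*). The sign of *Mga* turned, to −0.11, with the mean of its probe sets; the cause was not tested. Of the other 103 pathway genes, 5 were called lower (4.85%) and 8 higher (7.77%), beside 4.07% and 4.45% of all genes. Fewer were lower with a log2 difference over 1.5 (0), Student's test (1) and treat (1), and fewer were higher with these settings (2, 5 and 3) and among probe sets at or above the median brightness (5), where fewer genes are tested and 4 were lower. Without X- and Y-linked probe sets, 4 were lower and 6 higher, and without a fold threshold, 7 and 11. With a trended prior variance, *Mga* had an adjusted p under 0.05 and *Mxd1* did not. A trend in the prior variance and leaving out X- and Y-linked probe sets kept both calls of *Myc* and *Mycn*. No paired analysis was possible because the tables hold no values of single arrays, and for the same reason leaving out arrays in turn was not run.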

Other observations

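Other helix-loop-helix factors that read the E-box without MAX were looked at as a list chosen after the results above were known. Of 13 genes, 11 could be analysed, and 3 were called higher in *Alkbh1*-/- mESCs and 0 lower, beside 4.45% of all genes called higher. *Mitf*, the melanocyte and lysosome regulator, rose from 6.50 in WT to 7.94 in *Alkbh1*-/- mESCs, a log2 difference of 1.44 (SE 0.13, adjusted p = 0.000832). *Tfeb*, its relative that drives lysosome biogenesis, rose from 7.01 to 7.88, by 0.88 (SE 0.08, adjusted p = 0.001), and *Tfe3*, an X-linked member of this family, was at 0.12 and did not pass. *Clock*, of the circadian clock, rose by 0.73 at its brightest probe set (adjusted p = 0.00596), with 0.17 to 0.45 at the others, and its partner *Arntl* was at 0.24 (adjusted p = 0.158). *Usf1*, a ubiquitous E-box factor, had a difference of −0.44 (adjusted p = 0.0301), under the fold threshold.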
